A study of Mus musculus with 4 samples.

Results

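The 10 cathepsin genes Ctsa, Ctsb, Ctsc, Ctsd, Ctse, Ctsh, Ctsk, Ctsl, Ctss and Ctsz were examined for binding of PPARγ in mouse alveolar macrophages (AMs). They were listed by name, with earlier results of these data known, among 20923 protein-coding genes, and 57 of 20233 PPARγ regions were nearest to them. The cells came from lungs of wild-type (WT) C57BL/6J mice that were young adults, by bronchoalveolar lavage and FACS. PPARγ was profiled by HT-ChIPmentation, in which a transposase inserts sequencing adapters into chromatin captured by the antibody on beads. There were 2 ChIP libraries of 1 group, library 1 and library 2, and 2 input samples that carried no antibody and were not analysed here. All samples had the WT genotype and no treatment was named, so no contrast between conditions exists. Nothing in the labels says that the libraries came from separate mice, so a difference between them may be technical.

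Cathepsins are proteases that work mainly in the acid interior of endosomes and lysosomes, where most are matured from inactive precursors. Macrophages use them to digest engulfed material, to trim antigens and the invariant chain of MHC class II, and to remodel matrix outside the cell. AMs clear surfactant and inhaled particles through lysosomes, and PPARγ, a nuclear receptor that senses lipids and pairs with RXR on DNA, is needed for AM differentiation.

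A region here is a stretch of the mm10 genome (GRCm38) made by merging peaks that shared at least 1 bp and keeping those with a peak of each library. It was assigned to the protein-coding gene whose transcription start site (TSS) was nearest to its centre. Its strength is the authors' fold enrichment of ChIP over input at the summit, given for library 1 and then library 2. Because the libraries differ in scale, each region was also placed by the lower of its percentiles among all regions in both libraries, and ranked by that value from rank 1, the strongest, downward. Library 1 had 83787 peaks and library 2 had 28535, and the files hold no read counts, so the depth behind each peak is unknown. The AM label was checked against markers. All 8 of 8 AM marker genes had a region, as did 3 of 10 markers of other lung cells. Best ranks of the AM markers ran from 93 (Chil3) and 465 (Pparg) to 1755 (Itgax), except for Fabp4 at 9662. Of the other lung markers, Pecam1 had 3 regions (best rank 3281), Epcam 2 (9662) and Scgb1a1 2 (10003), while Cd3e and Cdh5 had none. Fabp4 thus ranked no better than Epcam and behind Pecam1. Of all protein-coding genes 31.6% had a region, so the share among the other lung markers was near that of any gene.

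PPARγ regions were found at 9 of the 10 cathepsin genes, against 31.6% of all protein-coding genes. Ctsc had 13 regions, Ctsd and Ctss 10 each, Ctsk 9, Ctsb 7, Ctsh 4, Ctsz 2, Ctsa and Ctsl 1 each, and Ctse none. The median was 5.5 regions per cathepsin gene, 0 over all genes and 2 over the 6616 genes with a region. At least 9 regions were nearest to 4 of the 10 genes, against 2.21% of all genes. A region nearest to the gene spanned its own TSS in 6 of the 10 (Ctsc, Ctsd, Ctsh, Ctsk, Ctss and Ctsz), against 14.1% of all genes. A TSS of Ctsa was covered by a region assigned to Neurl2, which this count leaves out. In library 1 alone all 10 genes had a peak, against 60.6% of all genes, and in library 2 alone 9 had one, against 34.9%. The number of regions depended on the definition: 174 of 83787 peaks of library 1 alone and 87 of 28535 of library 2 alone were nearest to these genes. Where both libraries had to reach a fold enrichment of 5, 27 of 10719 regions were nearest to them. These are counts over named genes and were not tested.

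Regions per length of genome differed widely among the cathepsin genes. The territory of a gene, the stretch in which its TSS is the nearest, was 423 kb for Ctsc, which held 3.07 regions per 100 kb, and 30.2 kb for Ctss, which held 33.1 per 100 kb. Ctsd held 32.7, Ctsk 19.5, Ctsz 11.5, Ctsb 10.7, Ctsa 6.86, Ctsh 3.90 and Ctsl 1.67 per 100 kb. Over all 10 genes the density was 6.83 regions per 100 kb, against 0.768 over all protein-coding genes.

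**Figure D1:**
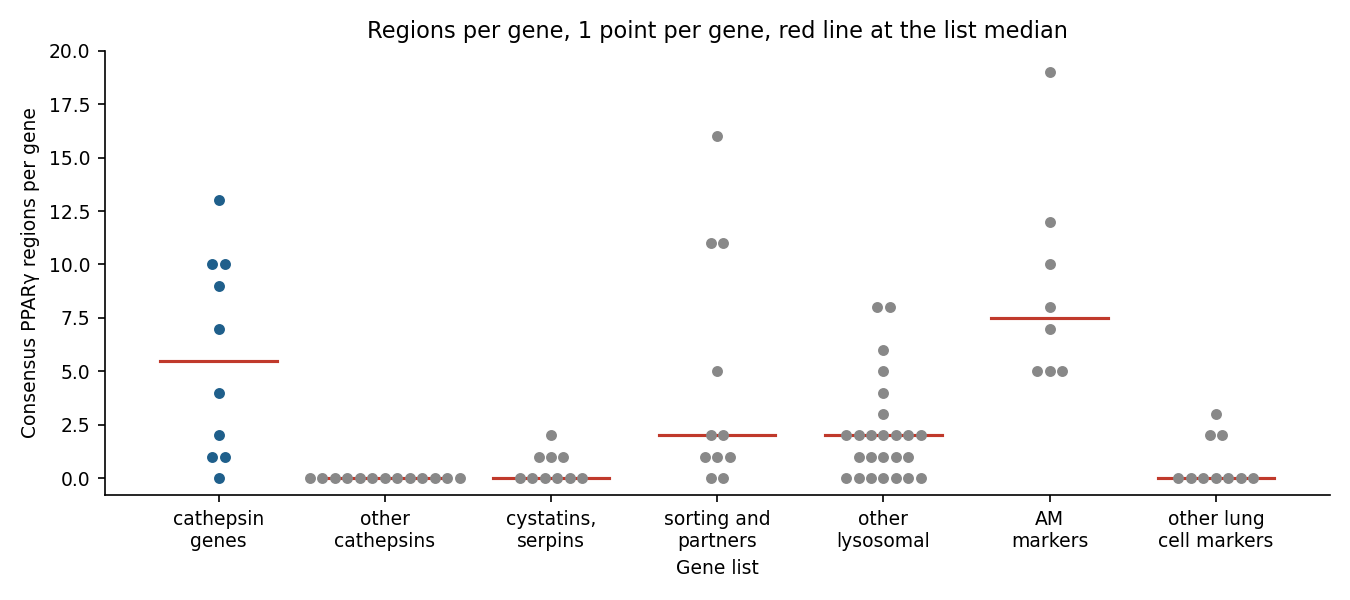
Number of consensus PPARγ regions per gene (vertical axis), 1 point per gene, for the cathepsin genes and for 6 related gene lists (horizontal axis), with a red line at each list's median. The cathepsin genes reach from 0 to 13 with a median of 5.5, and all 13 other cathepsins are at 0.

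The cathepsin regions were near the middle of all PPARγ regions in strength. Their median percentile was 32.7, against 33.0 over all regions, where a value below 50 arises because the lower of both libraries is taken. This depended on the definition: with library summits at most 100 bp apart the cathepsin median was 21.9, against 34.2 over all regions so defined. With library 1 shortened to the length of library 2 it was 34.3, against 33.5. Over the 57 regions the median fold enrichment was 6.22 in library 1 and 5.35 in library 2, against 6.81 and 5.35 over all regions. Fold enrichment ran from 2.62 to 19.3 in library 1 and from 3.002 to 12.6 in library 2. The percentile was at least 90 in 2 of the 57 regions (3.51%, 95% Wilson interval 0.968 to 11.9%), which belonged to Ctsc and Ctsd, against 5.83% of all regions. Across the 57 regions, fold enrichment in both libraries had a Spearman rho of 0.591, against 0.551 across all regions. The values are coarse, since the 57 regions took 38 distinct values in library 1 and 31 in library 2, and neighbours in the ranking often tie.

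**Figure D2:**
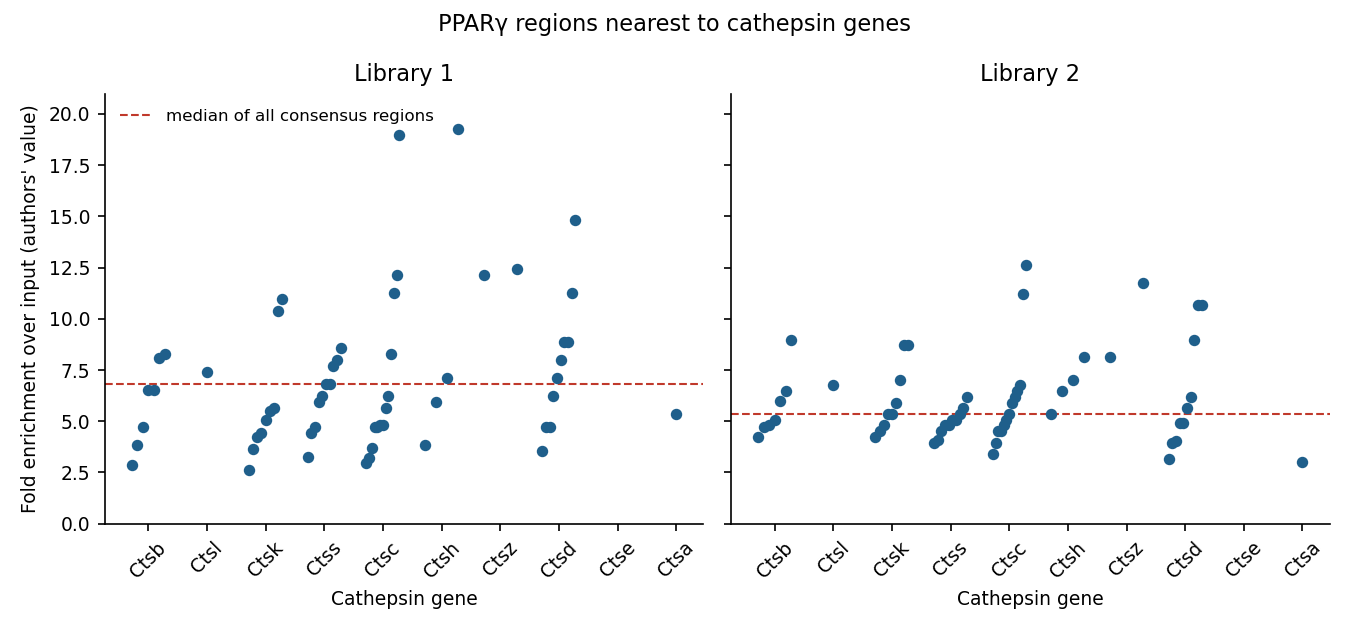
The authors' fold enrichment over input (vertical axis) of each region nearest to a cathepsin gene (horizontal axis), in library 1 (left) and library 2 (right). Each point is 1 region, and the dashed line is the median of all regions, 6.81 in library 1 and 5.35 in library 2. The highest points are Ctsh and Ctsc in library 1 (19.3 and 18.96) and Ctsc in library 2 (12.6).

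For each gene with a region, 121 bases around the library 1 summit of its best-ranked region are printed, since these are the bases nearest to the measured binding maximum. Letters come from the GRCm38.p6 genome, plus strand, 5′ to 3′. Capitals mark matches on either strand to short motifs of factors active in macrophages or at lysosomal genes: GNGGAAGT (PU.1), TTGCNNAA (C/EBP), TGANTCA (AP-1), TGTGGTT (RUNX), CACGTG (the E-box), GGGCGG (KLF/SP), TTCNNNGAA (STAT5), AGGTCA (the nuclear receptor hexamer) and GAAA repeated after 2 bases (ISRE, an interferon response element). A match is a stretch of letters and is no evidence that the factor was bound.

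Among the cysteine endopeptidases, Ctsb had 7 regions, all on the downstream side of its TSS. Ctsb encodes cathepsin B, an abundant lysosomal protease that also acts as a carboxydipeptidase. Its best region lay in an intron at 6.68 kb (chr14:63128656-63129637), with a fold enrichment of 8.07 in library 1 and 8.98 in library 2, rank 4595. Of the others, 4 lay in Ctsb introns between 1.021 and 9.81 kb and 2 lay at 25.2 and 26.4 kb within introns of Fdft1, the gene of squalene synthase, whose own TSS is farther along. If noncoding genes also competed for regions, Ctsb kept 5. The weakest, at 4.36 kb, had 2.86 in library 1 and 4.24 in library 2, a percentile of 1.69. No region spanned the Ctsb TSS: a peak at −0.052 kb with a fold enrichment of 5.04 was present in library 1 only. The summit of the best region (chr14:63129152-63129272) held a PU.1 match.
Ctsb, intron: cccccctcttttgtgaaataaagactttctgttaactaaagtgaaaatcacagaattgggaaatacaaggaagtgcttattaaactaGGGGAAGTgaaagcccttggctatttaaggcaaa

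Ctsl had a single region. Cathepsin L is a broad endopeptidase of lysosomes. The region lay just upstream of the TSS, centred at −0.193 kb (chr13:64370538-64370889), with 7.41 in library 1 and 6.75 in library 2, rank 5560 and percentile 57.8. Another 6 peaks were present in library 1 only, with fold enrichments of 3.59 to 7.11. An E-box lay within the 121 bases at the summit (chr13:64370681-64370801).
Ctsl, promoter: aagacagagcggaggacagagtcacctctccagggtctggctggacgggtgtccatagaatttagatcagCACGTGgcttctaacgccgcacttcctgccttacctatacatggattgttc

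Ctsk and Ctss stand in tandem on chromosome 3, both on the plus strand, with their TSSs 27.6 kb apart. Cathepsin K is the collagen-degrading protease best known from osteoclasts, and cathepsin S stays active at neutral pH and cleaves the invariant chain in antigen-presenting cells. Ctsk had 9 regions. The strongest spanned its TSS, with its library 1 summit inside the gene, and was 2961 bp wide (chr3:95497829-95500789), with 10.96 in library 1 and 8.70 in library 2, rank 1912. A further 6 regions lay in Ctsk introns between 2.01 and 6.58 kb, where fold enrichment was 3.65 to 5.63 in library 1 and 4.24 to 7.03 in library 2. At −2.27 kb a weak region, 2.62 in library 1 and 4.79 in library 2, had its centre in an untranslated stretch of the neighbouring gene Arnt. The second strongest was past the end of Ctsk, at 12.7 kb (chr3:95511201-95512606), with 10.4 in library 1 and 8.70 in library 2, rank 2217.
Ctsk, intron (chr3:95499510-95499630): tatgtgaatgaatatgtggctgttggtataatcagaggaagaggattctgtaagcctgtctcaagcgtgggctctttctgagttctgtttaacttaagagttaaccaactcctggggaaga
Ctsk, downstream (chr3:95511879-95511999): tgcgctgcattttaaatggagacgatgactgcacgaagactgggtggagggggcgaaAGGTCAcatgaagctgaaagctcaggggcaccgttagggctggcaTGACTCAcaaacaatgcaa

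Neither of these Ctsk summits held a PU.1 match, and the downstream one held a nuclear receptor hexamer and an AP-1 match. Ctss had 10 regions of more even strength. Upstream there were 6, between −12.6 and −2.76 kb, with 4.74 to 8.59 in library 1 and 3.96 to 5.63 in library 2. The region across the TSS (chr3:95526610-95527249) had 6.22 in library 1 and 6.19 in library 2, rank 8019. The other 3 were intronic, at 1.57, 1.93 and 3.23 kb, with 3.26, 4.44 and 7.998 in library 1 and 4.79, 4.79 and 4.08 in library 2. The best-ranked region of Ctss was the upstream one at −2.76 kb (chr3:95523691-95524356), with 6.81 in library 1 and 5.63 in library 2, rank 6626, so that no Ctss region was as strong as the best region of Ctsk in either library.
Ctss, upstream (chr3:95523996-95524116): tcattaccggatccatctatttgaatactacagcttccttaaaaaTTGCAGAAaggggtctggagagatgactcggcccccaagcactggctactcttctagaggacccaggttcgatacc

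Regions ran on from Ctsk into the space before Ctss. They left a gap across the end of Ctsk, from chr3:95505980 to chr3:95511201, which held only peaks of single libraries. The stretch from the first Ctsk region to the last Ctss region (chr3:95496818-95530312) was 33.5 kb long, held 19 regions and was covered by them over 41.3% of its length. The space between the end of Ctsk and the TSS of Ctss was 17.4 kb and held 7 of the regions, of which the nearest to the midpoint between the TSSs was centred 1.09 kb from it. The split into 9 regions for Ctsk and 10 for Ctss is therefore a split by distance, and these data do not say which gene a region in between acts on. Among 20233 windows of this length, each starting at a region, 13 (0.0643%) held as many regions, with a median of 3. Windows that start at neighbouring regions overlap, so the 13 need not be separate places. This stretch was chosen after its values were seen. Beyond Ctss the next gene, Hormad1, had no region, and on the other side Arnt had 1.

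**Figure D3:**
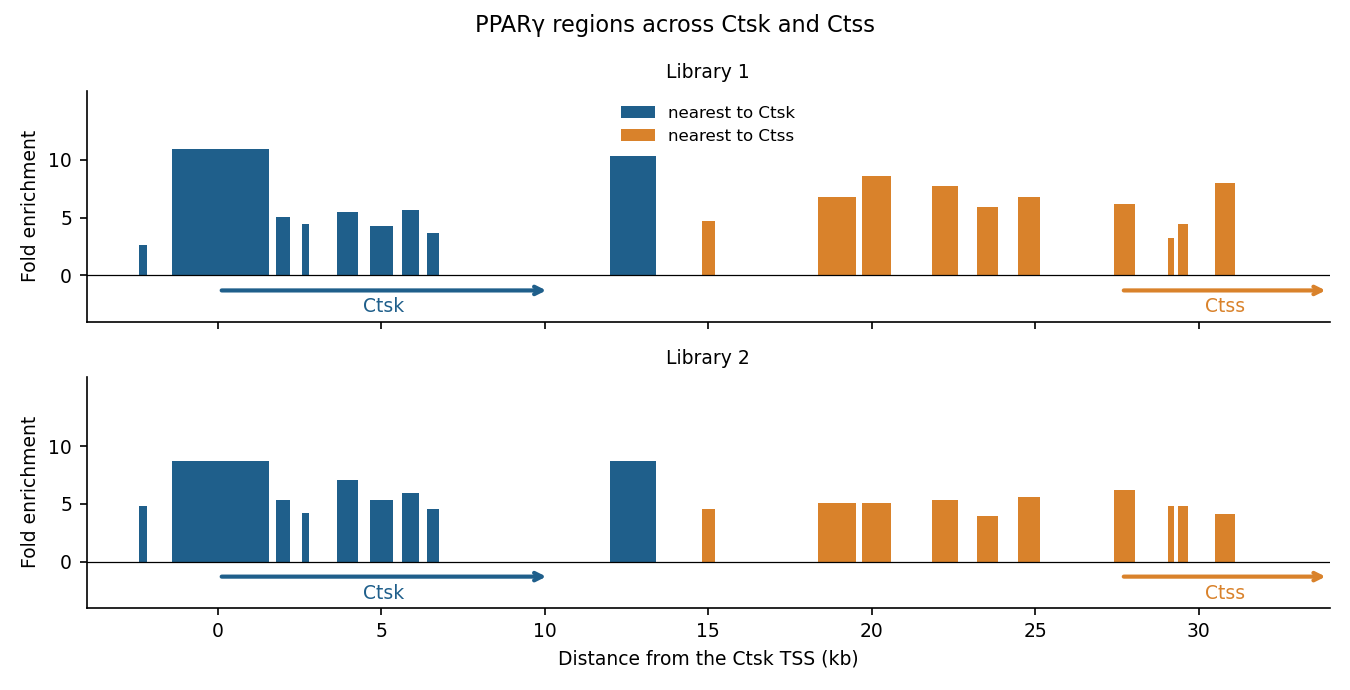
Regions nearest to Ctsk (blue) and Ctss (orange), drawn to scale by distance from the Ctsk TSS in kb (horizontal axis), with the authors' fold enrichment as bar height (vertical axis), in library 1 (top) and library 2 (bottom). Arrows show the transcribed genes and their direction, and Ctss runs on past the right edge. The tallest bars are the region across the Ctsk TSS and the downstream region at 12.7 kb, at 10.96 and 10.4 in library 1.

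The promoters of this pair are shown as the 250 bases upstream of each TSS (RefSeq promoter table, GRCm38.p6, plus strand), because each is covered at least in part by a region. In Ctsk (chr3:95498960-95499209) the letters hold a C/EBP match, and in Ctss (chr3:95526536-95526785) a nuclear receptor hexamer, a KLF/SP match and an ISRE.
Ctsk, 250 bases upstream: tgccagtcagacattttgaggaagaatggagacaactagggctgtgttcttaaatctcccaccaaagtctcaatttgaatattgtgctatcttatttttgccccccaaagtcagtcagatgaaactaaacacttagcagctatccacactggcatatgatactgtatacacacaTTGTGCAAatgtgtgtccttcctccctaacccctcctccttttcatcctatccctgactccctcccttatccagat
Ctss, 250 bases upstream: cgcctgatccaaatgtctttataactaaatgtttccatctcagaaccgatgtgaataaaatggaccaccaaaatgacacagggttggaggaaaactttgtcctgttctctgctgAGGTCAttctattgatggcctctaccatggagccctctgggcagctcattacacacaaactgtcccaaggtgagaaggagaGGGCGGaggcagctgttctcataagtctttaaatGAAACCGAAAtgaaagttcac

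Among the exopeptidases, Ctsc carried the strongest cathepsin region. Cathepsin C, or dipeptidyl peptidase I, removes dipeptides and activates the serine proteases of granules. Its promoter region was 2979 bp wide and spanned the TSS (chr7:88276667-88279645), with a fold enrichment of 18.96 in library 1 and 12.6 in library 2, rank 162 and percentile 98.2. The summits of the libraries were 14 bp apart. Upstream lay 8 regions between −70.8 and −26.2 kb, with 2.96 to 12.1 in library 1 and 3.40 to 11.2 in library 2. The best of them, at −26.2 kb (chr7:88250958-88252904), had 12.1 in library 1 and 11.2 in library 2, rank 1247. The 4 intronic regions between 3.05 and 17.0 kb were weaker, with 3.23 to 6.22 in library 1 and 3.96 to 5.07 in library 2. Both neighbours of Ctsc, Grm5 and Rab38, had no region, and their TSSs are 694 and 152 kb away. Outside these regions Ctsc had 55 peaks in library 1 only, with a median fold enrichment of 4.15, and 10 in library 2 only, with a median of 4.52. At the promoter summit (chr7:88277893-88278013) the letters hold a PU.1 match.
Ctsc, promoter: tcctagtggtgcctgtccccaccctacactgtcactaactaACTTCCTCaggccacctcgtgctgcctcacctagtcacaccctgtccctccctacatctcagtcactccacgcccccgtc

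Ctsh had 4 regions, 1 of which had the highest library 1 value of the 57. Cathepsin H is an aminopeptidase that, in type II alveolar cells, takes part in processing surfactant proteins. The region at −11.2 kb (chr9:90042597-90043603) had 19.3 in library 1 and 8.15 in library 2, rank 1476. The region across the TSS had 5.92 in library 1 and 6.47 in library 2, a percentile of 38.8. The others lay at −20.1 kb, with 7.11 in library 1 and 5.35 in library 2, and at 1.001 kb, with 3.85 in library 1 and 7.03 in library 2. A PU.1 match lay at the edge of the upstream summit (chr9:90043038-90043158).
Ctsh, upstream: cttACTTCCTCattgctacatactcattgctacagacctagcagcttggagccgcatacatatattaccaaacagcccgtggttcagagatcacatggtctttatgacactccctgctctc

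Ctsz had only 2 regions, both of them strong. Cathepsin Z, also called cathepsin X, is a carboxypeptidase. The intronic region at 1.80 kb (chr2:174435857-174438619) had 12.4 in library 1 and 11.8 in library 2, rank 1180. The promoter region across the TSS (chr2:174438773-174440105) had 12.1 in library 1 and 8.15 in library 2, rank 1476, the same rank as the upstream region of Ctsh. With a median percentile of 88.6, Ctsz stood highest among the cathepsin genes with a region. Its neighbours Nelfcd and Tubb1 had none. The intronic summit (chr2:174437625-174437745) held a KLF/SP and a STAT5 match.
Ctsz, intron: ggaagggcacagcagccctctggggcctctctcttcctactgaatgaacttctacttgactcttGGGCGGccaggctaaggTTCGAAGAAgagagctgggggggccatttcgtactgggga

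Of the aspartic proteases, Ctsd had 10 regions and Ctse had none. Cathepsin D is a major lysosomal endopeptidase, and cathepsin E is a related enzyme of endosomes found mainly in gastric and immune cells. Upstream of Ctsd, which lies on the minus strand, 9 regions were spread from −16.5 to −2.69 kb, and 1 spanned the TSS. The strongest, at −10.3 kb (chr7:142396458-142399871), was 3414 bp wide, the widest of the 57, and had 14.8 in library 1 and 10.7 in library 2, rank 525. It was made from 3 peaks of library 1 and 1 of library 2, whose summits were 1177 bp apart. At −16.5 kb (chr7:142403461-142405256) the values were 11.3 in library 1 and 10.7 in library 2, rank 1680. The TSS region (chr7:142387063-142388462) had 8.89 in library 1 and 6.20 in library 2, rank 3897, and the weakest upstream region by percentile, at −3.67 kb, had 8.89 in library 1 and 3.14 in library 2. On the far side of Ctsd, Ifitm10 had 13 regions of its own, all within 50 kb of the Ctsd TSS. At the library 1 summit of the strongest region (chr7:142399325-142399445) a PU.1 and a C/EBP match overlap.
Ctsd, upstream: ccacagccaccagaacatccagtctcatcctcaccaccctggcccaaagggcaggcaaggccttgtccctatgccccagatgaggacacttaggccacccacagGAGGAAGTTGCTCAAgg

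The 250 bases upstream of the Ctsd TSS (chr7:142387828-142388077, minus strand) are shown for their pair of E-boxes. The one nearer the TSS reads TCACGTGA, the core of the CLEAR element that the lysosomal regulators TFEB and TFE3 recognise.
Ctsd, 250 bases upstream: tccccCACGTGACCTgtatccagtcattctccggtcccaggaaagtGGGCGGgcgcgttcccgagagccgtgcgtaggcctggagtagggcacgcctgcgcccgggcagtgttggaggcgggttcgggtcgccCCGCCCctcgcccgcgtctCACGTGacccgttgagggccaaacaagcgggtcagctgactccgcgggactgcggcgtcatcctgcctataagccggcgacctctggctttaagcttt

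At Ctse the files listed 3 peaks of library 1, with fold enrichments of 2.96, 3.26 and 7.41, and no peak of library 2. Its neighbours Avpr1b and Rab7b also had no region.

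Ctsa encodes a serine carboxypeptidase that protects the lysosomal glycosidases Neu1 and Glb1 in a complex. Its single region lay in an intron at 1.01 kb from its second TSS (chr2:164834534-164835039) and was the weakest of the 57 by percentile, with 5.33 in library 1 and 3.002 in library 2, rank 19995 and percentile 0.591. The surroundings were not empty: 15 regions lay within 50 kb of a Ctsa TSS and 14 of these were nearest to other genes, 7 of them to Pltp, the phospholipid transfer protein gene, whose best region had rank 920. A region inside the body of Ctsa (chr2:164833458-164833786) was assigned by its centre to Neurl2, although it covered the second TSS of Ctsa. It had 6.52 in library 1 and 3.96 in library 2, a percentile of 9.44. Both values were above those of the region assigned to Ctsa. No motif of the set lay within the summit bases (chr2:164834541-164834661).
Ctsa, intron: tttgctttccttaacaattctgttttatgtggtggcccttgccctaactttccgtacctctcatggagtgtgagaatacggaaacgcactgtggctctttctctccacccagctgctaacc

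**Figure D4:**
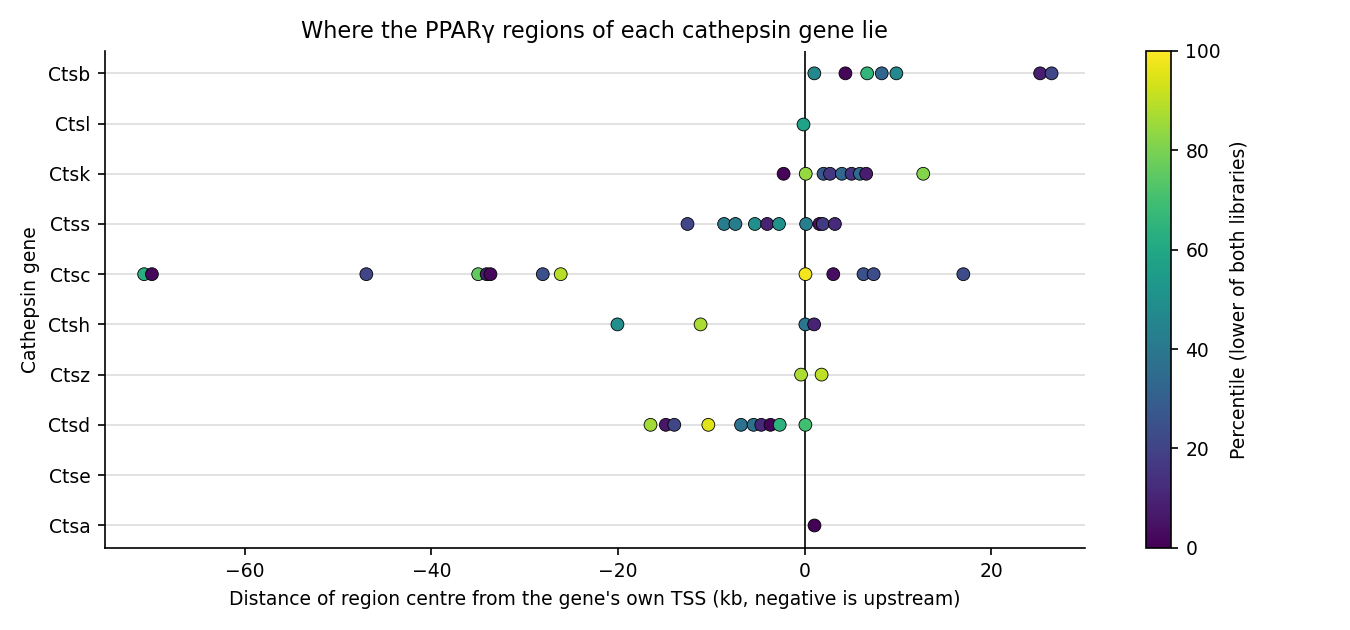
Distance of each region's centre from its gene's own TSS in kb (horizontal axis, negative upstream) for each cathepsin gene (vertical axis), colored by the lower of both libraries' percentiles. Regions of Ctsd lie upstream except the one at the TSS, those of Ctsb downstream, and Ctsc reaches to −70.8 kb.

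By position, 26 of the 57 cathepsin regions were intergenic (45.6%, 95% Wilson interval 33.4 to 58.4%), against 31.0% of all regions. Introns held 24 (42.1%, 30.2 to 55.0%), against 46.9%, and promoters, from 1000 bp upstream to 100 bp downstream of any TSS, held 6 (10.5%, 4.91 to 21.1%), against 18.6%. Within 50 kb of their own gene's TSS lay 55 (96.5%, 88.1 to 99.03%), against 83.1% of all regions. More than 3 kb from any TSS lay 37 (64.9%, 51.9 to 76.0%), against 61.4% of all regions. Library summits were within 100 bp of each other in 22 of the cathepsin regions (38.6%, 27.1 to 51.6%), against 52.7% of all regions. The share of all regions lay outside the cathepsin interval for intergenic position, for the 50 kb distance and for the summits. Since each region went to the nearest TSS, the spacing of genes bounds the distance. The TSSs next to Ctsd are 14.1 and 47.15 kb away, so none of its regions could lie beyond 50 kb. The 50 kb share is therefore no measure of where PPARγ binds. Regions of 1 gene are not independent, and the intervals cover counting error only.

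Motif matches near the summits were counted in cathepsin regions and in all regions. Within 100 bp of the library 1 summit, PU.1 matches lay in 7 of 57 (12.3%, Wilson interval 6.08 to 23.2%), against 11.9% of all regions. In windows 1 kb to the left the PU.1 share was 3.51% for the cathepsin regions and 3.29% for all regions. In the flanks of the cathepsin regions, 1 kb to the left and 1 kb to the right, C/EBP lay in 12.3% and 14.0%, AP-1 in 7.02% and 8.77%, and STAT5 in 8.77% and 7.02%. RUNX lay in 8.77% and 1.75%, on the left above its share at the summits. The nuclear receptor hexamer lay in 17.5% and 14.0%, on both sides above its share at the summits. The flanks of all regions held C/EBP in 8.35% and 8.34%, AP-1 in 5.83% and 5.90%, and STAT5 in 5.99% and 5.97%. They held RUNX in 5.18% and 5.26%, and the hexamer in 12.3% and 11.9%. At least 1 of PU.1, C/EBP, AP-1 and RUNX lay in 33.3% of cathepsin summits and in 29.8% of the windows to their left, against 37.7% and 20.7% for all regions. Some flanks lie within a PPARγ region themselves. The left flank of the Ctsc promoter summit falls in the same region. That of the Ctsk region at 2.01 kb falls in the region across the Ctsk TSS. The flanks are therefore not a set of unbound sequences. At the summits, C/EBP matches lay in 15.8% of cathepsin regions against 15.1% of all regions, AP-1 in 10.5% against 9.98%, RUNX in 7.02% against 8.02%, and STAT5 in 14.0% (7.29 to 25.3%) against 7.30%. Around the library 2 summit the STAT5 share of the cathepsin regions was 5.26%, and within 50 bp of the library 1 summit the PU.1 share was 5.26%. Shares of all regions under these settings are not given here. Within 100 bp of the library 1 summit the nuclear receptor hexamer lay in 8.77% (3.81 to 18.9%) against 14.9%, KLF/SP in 5.26% against 10.6%, the E-box in 5.26% against 4.33%, ISRE in 1.75% against 3.34% and the CLEAR core in 1.75% against 0.465%. For every motif named here the share of all regions lay inside the cathepsin interval at that window and summit. The PPAR-RXR element DR1 is a pair of such hexamers in the same direction 1 base apart. With at most 1 mismatch it lay within 100 bp of the library 1 summit in 0 of 57 cathepsin regions (Wilson upper bound 6.31%). In that window it lay in 0.786% of all regions, so its absence could not be told from that rate. Within 200 bp of the summit its share of the cathepsin regions was 1.75%. The closest match within 100 bp, with 2 mismatches of 12, was in the Ctsh region at −20.1 kb, 61 bp from the summit (chr9:90034316-90034328, minus strand).
Ctsh, closest DR1: AGGTCATTGGTGA

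**Figure D5:**
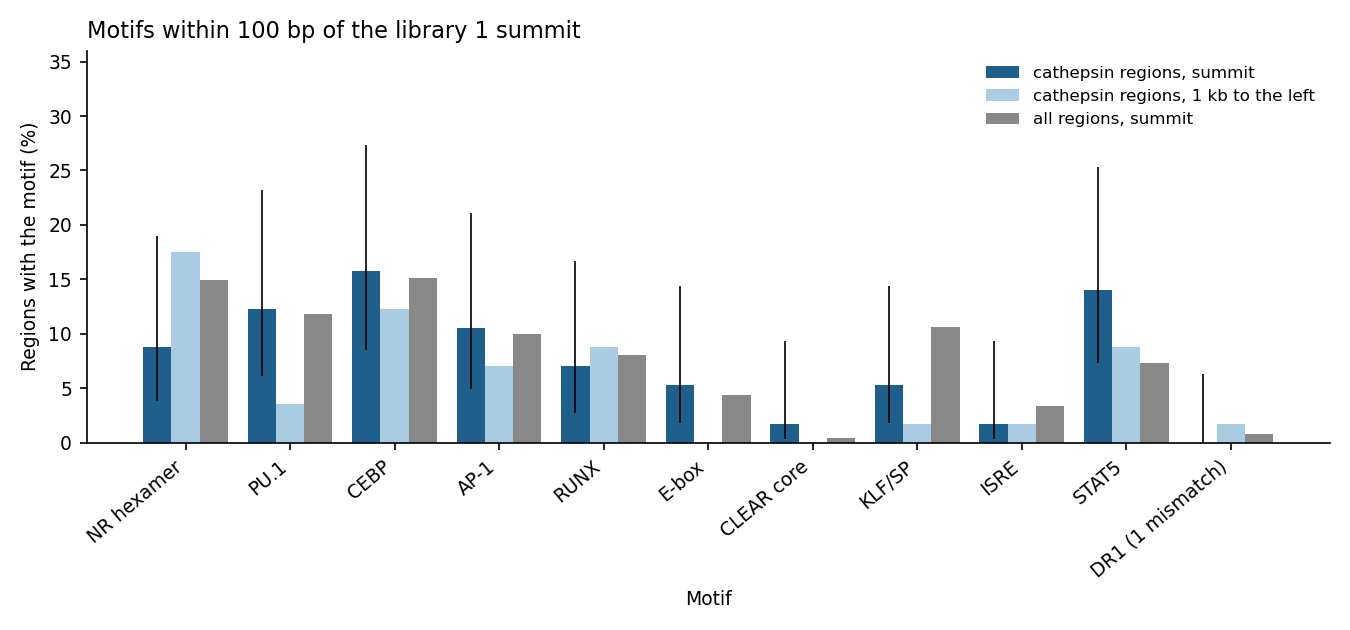
Share of regions in percent (vertical axis) with each motif (horizontal axis) within 100 bp of the library 1 summit in cathepsin regions (dark blue, bars of 95% Wilson intervals), in a window of the same length 1 kb to the left of them (light blue) and at the summits of all regions (grey). PU.1 is at 12.3% at the cathepsin summits, 3.51% to their left and 11.9% at all summits.

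The RefSeq promoter table, windows that reach from 250 before to 50 after a TSS, had 8 entries for 7 of the 10 genes (Ctsa with 2, Ctsc, Ctsd, Ctsk, Ctsl, Ctss and Ctsz). PU.1 matches were in the promoters of Ctsa, Ctsc, Ctsk and Ctss, against 7.27% of 32851 promoters. The E-box was in those of Ctsa, Ctsd and Ctsl, against 7.15%, and the CLEAR core in those of Ctsa and Ctsd, against 0.974%. KLF/SP matches were in Ctsc, Ctsd, Ctss and Ctsz, against 35.7%, and the nuclear receptor hexamer in Ctsa, Ctsd and Ctss, against 16.3%. C/EBP was in Ctsk and Ctsl, against 10.8%, STAT5 in Ctsc, against 8.30%, and ISRE in Ctss, against 3.44%. None of the 8 held AP-1, against 7.81%, RUNX, against 5.27%, or a DR1 with at most 1 mismatch, against 0.554%.

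The rest of the cathepsin family was without PPARγ regions. None of the 13 other cathepsins had a region, among them Cts3, Cts6 and Cts7, members of a mouse cluster expressed in placenta, and Ctso was the only one with a peak, in library 1. Against 31.6% of all protein-coding genes, 4 of 10 of their inhibitors and related serpins had a region, a share near that background: Serpinb1a, an inhibitor of neutrophil proteases, had 2 (best rank 4087), and Cstb, Cst3 and Stfa3 had 1 each, while Cst6, Cst7 and Serpina3g had none. Genes that sort, process or partner cathepsins had one in 9 of 11, against the same 31.6%, with 50 regions: Sort1, a sorting receptor, had 16, Psap, the saposin precursor, 11 (best rank 636), Gnptab, which makes the mannose 6-phosphate tag, 5 (rank 944), and M6pr, its receptor, 2, while Glb1 and Gnptg had none. Of other lysosomal enzymes and membrane proteins, 18 of 25 had a region, again against 31.6%, with 53 in all: the best ranked were Fuca1, Pla2g15, Ppt1 and Lipa at 525, 683, 1302 and 1395, and Arsa and Gaa had none. The median was 5.5 regions for the 10 cathepsin genes, 2 for the sorting and the other lysosomal lists, and 0 for the other cathepsins and for the inhibitors. Since the 10 genes and the lists were chosen with earlier results known, these counts are a description and were not tested.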

How the data were processed

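PPARγ HT-ChIPmentation peaks of AMs were analysed as 2 ChIP libraries. Per the submitters' processing notes and the study's methods, the tools of the authors included CASAVA, bcl2fastq (2.20.0.422), MACS3, Bowtie2, cutadapt and SAMtools, the genome was mm10, and peaks were called per library against input at a q of 0.05 without pooling. The deposited peak lists give a linear ratio, the fold enrichment of ChIP relative to input, both the p-value and the q-value as −log10, and a score. Such lists can miss weak peaks in a shallower library, and they hold no counts, so precision per peak is unknown.

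Peaks sharing at least 1 bp were merged, and regions with peaks of both libraries were assigned by centre to the nearest TSS of curated RefSeq protein-coding transcripts (GRCm38.p6). All peak ends lay inside the mm10 chromosomes. Motifs on either strand were counted up to 100 bp from the library 1 summit. CACGTG is contained in the CLEAR core TCACGTGA. Merging and assignment were tested on simulated data. Python 3.11.15 was used with pandas 2.3.3, numpy 2.4.6, scipy 1.17.1, pysam 0.24.0 and matplotlib 3.10.9, and samtools 1.23.1. Shares have 95% Wilson intervals. With 1 group there was no contrast, and no test was run.

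All 10 cathepsin genes were described, with each one's best region, regions at or near its TSS and flanking genes; of each list, up to 4 best-ranked genes and up to 3 alphabetically first genes without a region were named. Some genes that this rule selects are not reported here. The members and lists were chosen with earlier results of these data known. Alternatives were stricter q or fold thresholds, other overlap rules, library 1 shortened to the length of library 2, single libraries, the summit in place of the centre, noncoding genes, a distance limit and other motif windows. GENCODE basic transcripts were added after the data were seen.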

Additional observations from a re-analysis of the deposited data

How the results depend on the processing

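The number of cathepsin genes with a region stayed between 8 and 10 under all 11 alternatives, whereas the number of regions depended on how a region was defined. Over all genes the share with a region ran from 22.4%, with overlap by 50% of each, to 60.6%, in library 1 alone. The number of cathepsin regions was 57 of 20233 as reported and 27 of 10719 when only peaks of fold 5 or more entered. It was 32 of 10403 when peaks had to overlap by 50% of each and 26 of 11396 with summits at most 100 bp apart. With library 1 shortened to the length of library 2 it was 36 of 15315. With single libraries it was 87 of 28535 peaks (without replicate 1) to 174 of 83787 (without replicate 2). The median percentile of 32.7 was 21.9 with summits at most 100 bp apart, against 34.2 over all regions so defined. It was 31.0 against 36.4 with overlap by 50% of each, and 34.3 against 33.5 with library 1 shortened. In library 2 and library 1 alone it was 45.4 and 51.5, against 49.9 and 51.5 over all peaks, where no lower of both libraries is taken. The share more than 3 kb from any TSS was 66.7% in library 2 alone and 78.2% in library 1 alone, against 64.9% as reported. Over all peaks or regions the same shares were 63.4%, 66.7% and 61.4%. Ctsa lost its region at a q of 0.001, at a fold enrichment of 5 and with GENCODE transcripts, and Ctsl lost its region with summits at most 100 bp apart. Of 35 motif shares under other windows or DR1 rules, 3 left the interval found within 100 bp of the library 1 summit. The nuclear receptor hexamer was at 19.3% within 200 bp, PU.1 at 5.26% within 50 bp and STAT5 at 5.26% around the library 2 summit. For the hexamer and PU.1 the length of the window differed, so these shares are not like for like with that interval. Shares of all regions under these settings are not given here, so no difference from them is claimed. No paired analysis was possible because both ChIP libraries form 1 group. The cause of these changes was not tested, and the unknown depth of the libraries limits every comparison of weak peaks.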
